A study of Saccharomyces cerevisiae with 2 samples.

Results

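The secretory vesicle traffic genes of Saccharomyces cerevisiae carry newly made proteins from the endoplasmic reticulum (ER) through the Golgi to the cell surface. They were chosen by name. Genes with a SEC number were kept, except SEC53 and SEC59, and 15 further genes of the same steps were added, which gave 49 genes. Of these, 48 were matched to a row among the 6207 genes on the arrays, and no row carried the locus tag of ERP1. A row with a similarly spelled tag may be ERP1, but it was not matched and held no value. Values on both arrays existed for 33 of the 48.

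The data are a dye swap on 2 two-colour DNA microarrays that compared zymolyase-treated with untreated cells of an msn2/4 mutant, named for MSN2 and MSN4, which encode transcription factors of the general stress response. Zymolyase is an enzyme preparation that digests cell wall glucan. The treated part of a culture in rich YEPD medium at 24 °C received Zymolyase 100T at 5 units per ml, the untreated part received none, and both were collected at 3 hours. The mutation is thus shared by both conditions, no wild-type strain is analysed here, and neither MSN2 nor MSN4 had a value on either array. On array 1 the zymolyase RNA carried Cy3 and the untreated RNA Cy5, and on array 2 the dyes were exchanged. The design text of the series gives 1 culture, whereas the sample descriptions mention several for a condition. Here 1 culture is assumed, so the arrays are taken as technical repeats of 1 treated and 1 untreated extract and together make 1 replicate. The conditions could therefore not be tested against each other, no p-value is given, and every SD below is over the 2 hybridisations.

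In the secretory pathway a protein first enters the ER through the Sec61 channel. COPII-coated vesicles then carry it to the Golgi, COPI-coated vesicles return escaped material to the ER, and the exocyst tethers late vesicles to the plasma membrane before SNARE proteins fuse them. In yeast these steps supply the wall proteins and wall-synthesising enzymes of the growing bud, and the SEC genes were named for mutants that block them.

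Ratios are log2 values as the authors deposited them, except that the sign of array 2 was turned before averaging. That turn rests on cell wall genes with large opposite deposited values. SLT2, the cell wall integrity kinase, had 4.08 on array 1 and -1.996 on array 2 as deposited. Positive values are then likely zymolyase over untreated, since published work reports that zymolyase raises such genes. The numerator is not stated, and with the opposite one every sign below turns. Across 2254 genes with both values the turned arrays correlated negatively (Pearson's r = -0.19, Spearman's rho = -0.31), so the correlation does not settle the turn. The rounding of the values shows that the ratios of array 2 were inverted at some step before deposit, but not whether that step put both arrays in the same direction. Orders of genes and roles below hold with the turn. Values without it are given for the role medians and for some genes. The turned mean had a median of -0.37 across the 2254 genes, and a gene's place is given as its percentile among them.

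None of the 33 secretory genes was positive and 3 were negative under the rule used here: a mean at least 2-fold (1 on the log2 scale) with the same sign on both arrays. The same rule called 2.88% of all 2254 genes positive and 13.6% negative. The 3 negative members were SEC7, an exchange factor for the Arf GTPase, RET2, a COPI subunit, and SEC12, an exchange factor for the COPII GTPase Sar1. Another 3 members, SEC72, SEC11 and RET3, also averaged beyond 2-fold, but array 1 opposed array 2, and they were not counted. Centring each array on its median gave 2 positive members, SEC5 and SEC24, and 2 negative ones, SEC7 and RET2, against 4.97% positive and 7.63% negative among all genes. With array 2 as deposited other genes passed: 4 members were positive, namely SEC63, SEC27, SEC5 and SEC21, and 5 were negative, namely SEC72, RET3, SEC22, SEC11 and SEC66. The background was then 12.3% positive and 13.7% negative. No member was called under both readings, since each needs the same sign on both arrays.

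**Figure D1:**
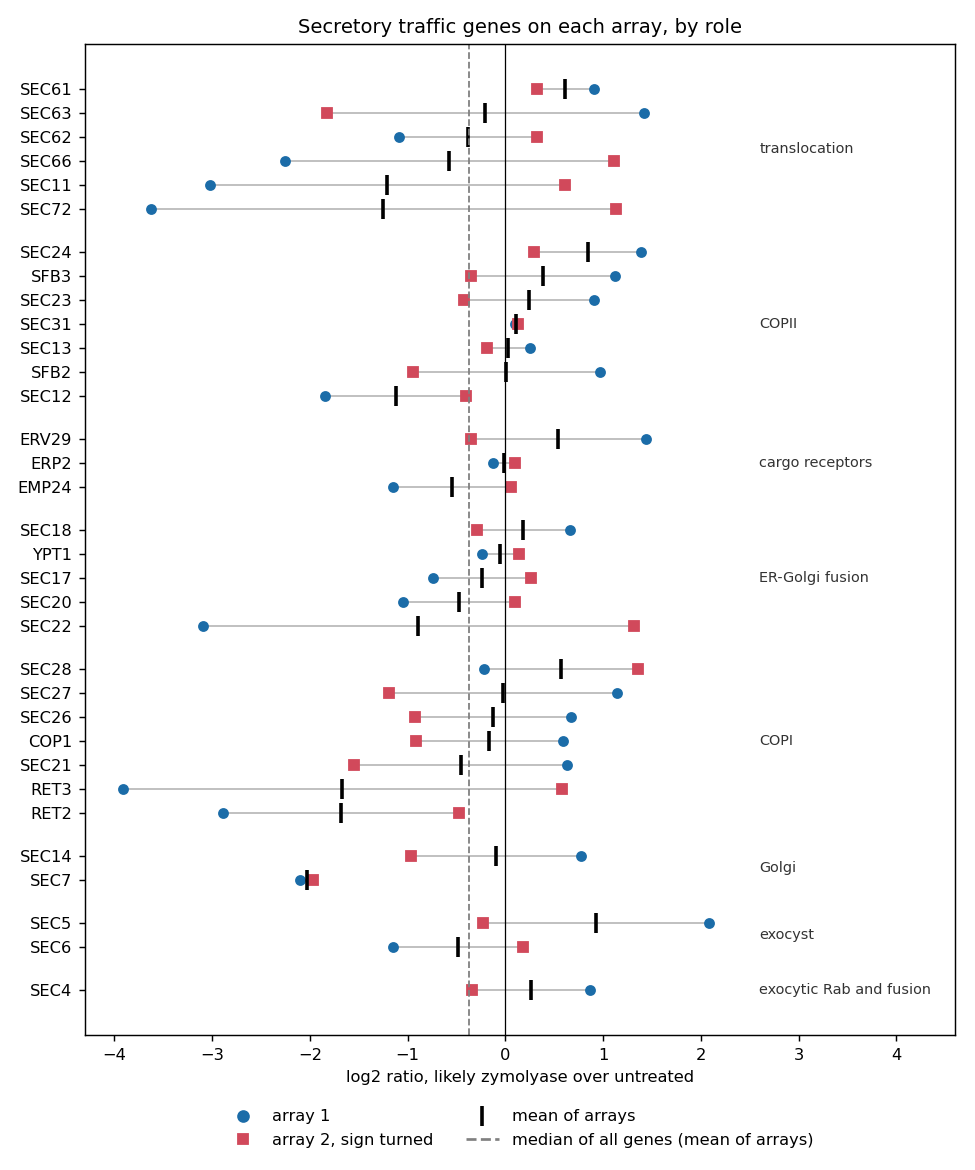
Log2 ratio (horizontal axis) of the 33 members with values on both arrays, grouped by role down the page. Circles are array 1, squares are array 2 with its sign turned, black ticks are their mean and the dashed line is the all-gene median of -0.37; the circle and square lie close together for SEC7 and SEC31 and on opposite sides of 0 for 27 genes.

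Among the 5 roles with at least 3 measured genes, the translocation genes had the lowest median, -0.48 over 6 of 7 genes, and the arrays opposed each other in 5 of the 6. SEC61, the channel subunit, was the exception, with 0.90 on array 1 and 0.32 on array 2. Its mean was 0.61 ± 0.41, at percentile 94.1 of all genes. SEC63, the J-domain partner of the channel, had 1.42 on array 1 and -1.83 on array 2, which average to -0.20 ± 2.29.

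The smaller subunits that join Sec63 in post-translational import showed the reverse pattern. SEC72 had -3.63 on array 1 and 1.13 on array 2, with a mean of -1.25 ± 3.36. SEC66 had -2.26 and 1.11 on arrays 1 and 2, and SEC62 had -1.09 and 0.32. SEC11, the catalytic subunit of signal peptidase, had -3.02 and 0.61, with a mean of -1.21 ± 2.56. In these 4 genes array 1 was negative and array 2 positive, so no direction between the conditions can be read from them. With array 2 as deposited the role median was -1.20, also the lowest of the 5. SEC65, a subunit of the signal recognition particle, had no value on either array.

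The COPII genes had the highest median of these 5 roles with the turn, 0.11 over 7 of 9 genes, and 6 of the 7 lay above the all-gene median. SEC24, which binds cargo in the inner coat, was positive on both arrays, with 1.39 on array 1 and 0.30 on array 2. Its mean of 0.84 ± 0.77 stood at percentile 96.0 but missed 2-fold. Its paralogs SFB3 and SFB2 had 1.12 and 0.97 on array 1, close to SEC24, but -0.35 and -0.94 on array 2. Their means were 0.38 ± 1.04 and 0.01 ± 1.35. Cross-hybridisation among these related genes was not tested.

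SEC23, the inner-coat partner of Sec24 that activates the Sar1 GTPase, had 0.90 on array 1 and -0.43 on array 2, with a mean of 0.24 ± 0.94. The outer-coat genes were near 0 on both arrays. SEC31 had 0.09 and 0.13 on arrays 1 and 2, the smallest SD of the members (0.11 ± 0.02), and SEC13 had 0.25 and -0.19. SEC12, the ER membrane exchange factor that loads Sar1 with GTP, stood apart from the coat genes, at -1.84 on array 1 and -0.40 on array 2. Its mean was -1.12 ± 1.02 (2.18-fold), at percentile 17.1, and it did not pass the rule after centring. With array 2 as deposited the median of the role was 0.55, below the 0.75 of COPI. SAR1 itself and the scaffold gene SEC16 had no value on either array.

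Of the cargo receptor genes, 3 of 5 on the array had both values, and their median was -0.01. ERV29, the receptor that packs soluble cargo into COPII vesicles, had 1.43 on array 1 and -0.35 on array 2 (mean 0.54 ± 1.26). The p24 family genes ERP2 and EMP24 encode small membrane proteins of the same vesicles. ERP2 was near 0 on both arrays, with -0.12 and 0.10 on arrays 1 and 2, and EMP24 had -1.15 and 0.06, with a mean of -0.54 ± 0.86. The p24 gene ERV25 and the receptor gene ERV14 had values only on array 2, -0.57 and -1.53. None of the 3 genes with both values kept 1 sign, and the median was -0.11 with array 2 as deposited.

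The genes of fusion between ER and Golgi, in either direction, had a median of -0.24 over 5 of 8 genes. In all 5 the arrays had opposite signs. SEC18, the ATPase that takes SNARE complexes apart, had 0.66 on array 1 and -0.29 on array 2. SEC17, its SNARE adaptor, had -0.74 and 0.26. YPT1, the Rab GTPase of ER-to-Golgi transport, was close to 0 at -0.24 and 0.14, with a mean of -0.05 ± 0.27. Among the SNARE genes, SEC22 had -3.10 on array 1 and 1.32 on array 2, the widest difference of the role (mean -0.89 ± 3.12). SEC20, a SNARE of retrograde traffic, had -1.04 and 0.10. The SNARE gene BET1 had 0.99 on array 2 only, and the SNARE gene BOS1 and SEC39, of the Dsl1 tether, had no value. With array 2 as deposited the median was -0.50.

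All 7 COPI subunit genes had values on both arrays, and their median was -0.16, with 4 of the 7 above the all-gene median. The large subunits had like ratios on each array. COP1, the alpha subunit, had 0.59 on array 1 and -0.91 on array 2. SEC27, the beta-prime subunit, had 1.14 and -1.19, SEC26, the beta subunit, 0.68 and -0.92, and SEC21, the gamma subunit, 0.63 and -1.55. Each of these 4 was positive on array 1 and negative on array 2, and their means lay between -0.46 and -0.03.

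RET2 and RET3, which encode the delta and zeta subunits, had the lowest means of the coat. RET2 had -2.89 on array 1 and -0.48 on array 2, which gave -1.68 ± 1.71 (3.21-fold), at percentile 7.90. RET3 had a like mean, -1.67 ± 3.18, but from -3.91 on array 1 and 0.58 on array 2. RET2 was therefore counted and RET3 was not. SEC28, the epsilon subunit, was the highest of the coat, with -0.22 on array 1 and 1.35 on array 2 (mean 0.57 ± 1.11). With array 2 as deposited the median of the coat was 0.75, and SEC28 had -0.79.

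SEC7, a Golgi exchange factor for the Arf GTPase, had the lowest mean of all members. It had -2.10 on array 1 and -1.96 on array 2, so the mean was -2.03 ± 0.09 (4.08-fold), at percentile 5.06. It was also the only member at least 2-fold with the same sign on each array, a limit that 1.69% of all genes passed as positive and 4.61% as negative. With array 2 as deposited the SEC7 values cancel to -0.07, so this value rests on the turn. SEC14, the phosphatidylinositol and phosphatidylcholine transfer protein of the Golgi, had 0.77 and -0.97 (mean -0.10 ± 1.23), and averaged 0.87 as deposited.

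Late secretion was the least measured step. Of the 6 exocyst genes, 2 had both values. SEC5 had 2.09 on array 1 and -0.23 on array 2, with the highest turned mean of the members, 0.93 ± 1.64, at percentile 96.7. As deposited it averaged 1.16, below the 1.62 of SEC63. SEC6 had -1.15 and 0.18, with a mean of -0.48 ± 0.94 and -0.67 as deposited. These subunits of a single tethering complex thus differed in sign on each array. SEC15 and SEC8 had values only on array 2, -2.52 and -0.21, and SEC3 and SEC10 had none. Among the 4 genes that act with the exocyst, SEC4, the Rab GTPase of secretory vesicles, had 0.87 and -0.34 (mean 0.27 ± 0.85), and averaged 0.60 as deposited. SEC2, the exchange factor for Sec4, SEC1, a SNARE-binding regulator, and SEC9, a plasma membrane SNARE, had no value.

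Set against each other, the roles differed on array 1 in an order that array 2 repeated only in part, as deposited or with its sign turned. On array 1 the medians were -1.67 for translocation, 0.90 for COPII and 0.59 for COPI, so COPII exceeded translocation by 2.58 and COPI did by 2.26. On array 2 with its sign turned the medians were 0.46, -0.35 and -0.91 for the same roles, and the differences were -0.81 and -1.38. As deposited, array 2 had -0.46, 0.35 and 0.91, so COPII and COPI lay above translocation there as on array 1. In the turned mean COPII exceeded translocation by 0.59 and COPI did by 0.32, and in the mean of the deposited values by 1.74 and 1.95. COPII exceeded COPI by 0.31 on array 1 and by 0.57 on the turned array 2, with ranges that overlapped on each. As deposited, array 2 had COPI above COPII, and the medians of the deposited means did too, by 0.75 against 0.55. The role order could not be tested with 1 culture, and the exocyst, with 2 measured genes, allowed no median to be compared.

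**Figure D2:**
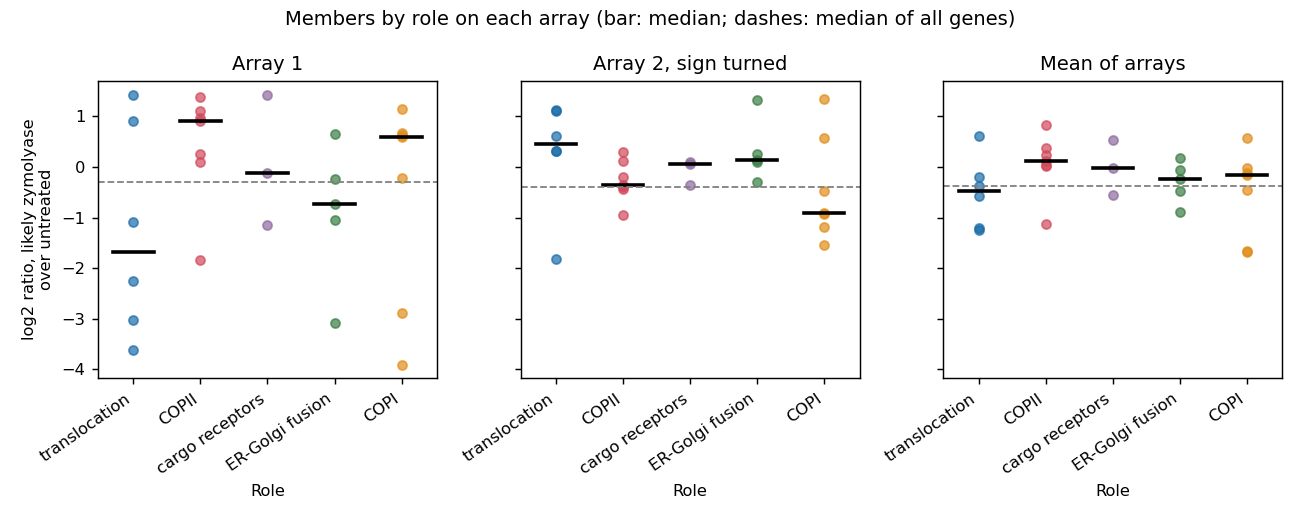
Log2 ratios (vertical axis) of the members of the 5 roles with at least 3 measured genes, on array 1, on array 2 with its sign turned, and as their mean. Points are genes, black bars role medians and dashed lines all-gene medians; COPII and COPI lie above translocation on array 1 (0.90 and 0.59 against -1.67) and below it on the turned array 2 (-0.35 and -0.91 against 0.46).

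The opposition of the arrays ran through the whole set. Of the 33 members 6 had the same sign on both arrays (18.2%), namely SEC61, SEC24, SEC31, SEC12, RET2 and SEC7, against 39.8% of all 2254 genes. Signs were taken about 0 without centring. The medians on array 1 and the turned array 2 were -0.31 and -0.39 over all genes, but 0.09 and -0.19 over the members. How far these offsets account for the contrast in shares was not tested. The arrays differed by over 1 in 26 members (78.8%), against 64.2% of all genes. Across the members the turned arrays had Pearson's r = -0.48 and Spearman's rho = -0.49, against -0.19 and -0.31 over all 2254 genes. The members are n = 33 genes of the same hybridisations, and their coefficients are given as a description. The direction of array 2 is thus not settled by these genes either.

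**Figure D3:**
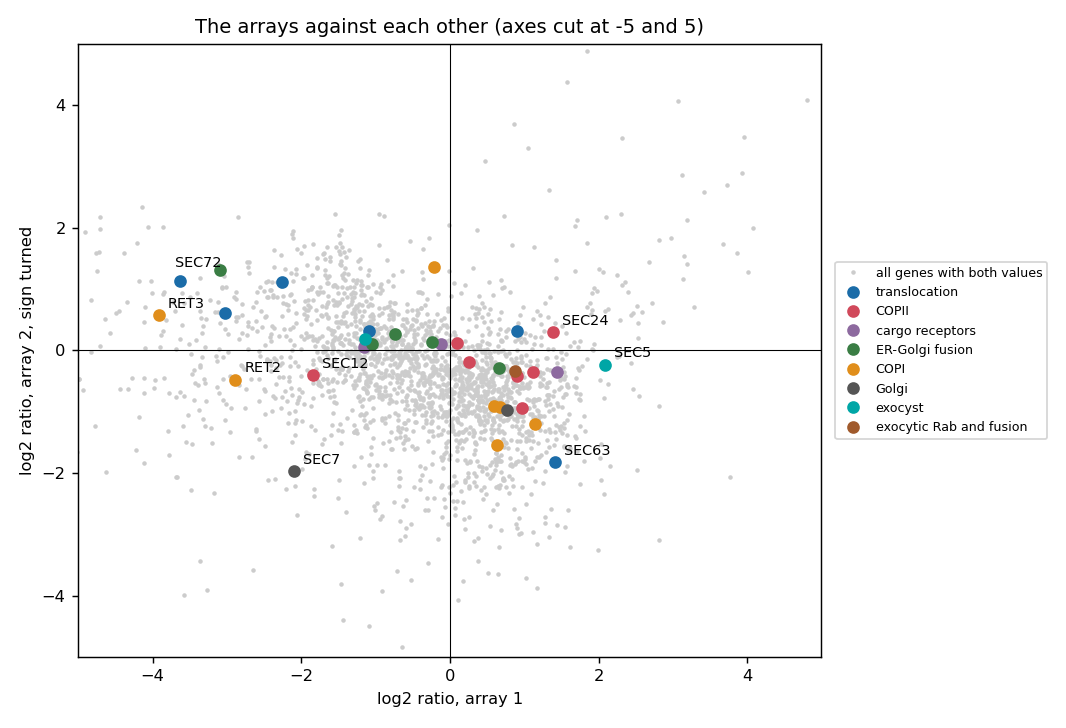
Log2 ratio on array 1 (horizontal axis) against array 2 with its sign turned (vertical axis), for all genes with both values (grey) and the members (coloured by role). Most members lie in the upper left and lower right, where the arrays oppose each other; SEC7 is alone among members at the lower left beyond 2-fold on both.

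Gene length moved with this opposition. The mean of the deposited values, which equals the part on which the turned arrays oppose each other, had Spearman's rho = 0.66 with gene length over the 33 members and 0.46 over the 2174 genes with a RefSeq length. All 33 members and all genes share the same hybridisations, and depth of signal is unknown. The turned mean had rho = 0.30 over the members and 0.03 over all genes. Among the 16 members shorter than 1254 bases, the median length of all measured genes, the mean of the deposited values was negative in 12. Among the 17 longer members it was positive in 12. In all genes it was positive in 33.1% of the shorter and 71.3% of the longer ones.

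The lengths of the roles differed in the same way. The measured translocation genes had a median length of 723 bases, the COPII genes 2631 and the COPI genes 2808. Within COPI, the shortest gene, RET3 (570 bases), had the lowest ratio on array 1, while COP1, SEC27, SEC26 and SEC21, each between 2808 and 3606 bases, were positive there. RET2 and SEC28 did not follow this order, with -2.89 at 1641 bases and -0.22 at 891 bases. SEC7 (6030 bases) went against this relation on array 1, at -2.10. After each array was centred on the median of genes of similar length (10 equal groups by length), a setting chosen after seeing the data, the role medians were -0.03 for translocation, 0.51 for COPII and 0.19 for COPI, on an all-gene median of -0.06. In that setting SEC7 was the only negative member, at -1.68, and SEC5 (1.28), SEC24 (1.19) and SEC28 (1.05) were positive. The background was 5.01% positive and 7.99% negative. RET2 still averaged -1.33 there but with opposite signs on the arrays, and SEC12 averaged -0.91, so neither was called. The part of length in the differences between roles was not tested further.

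**Figure D4:**
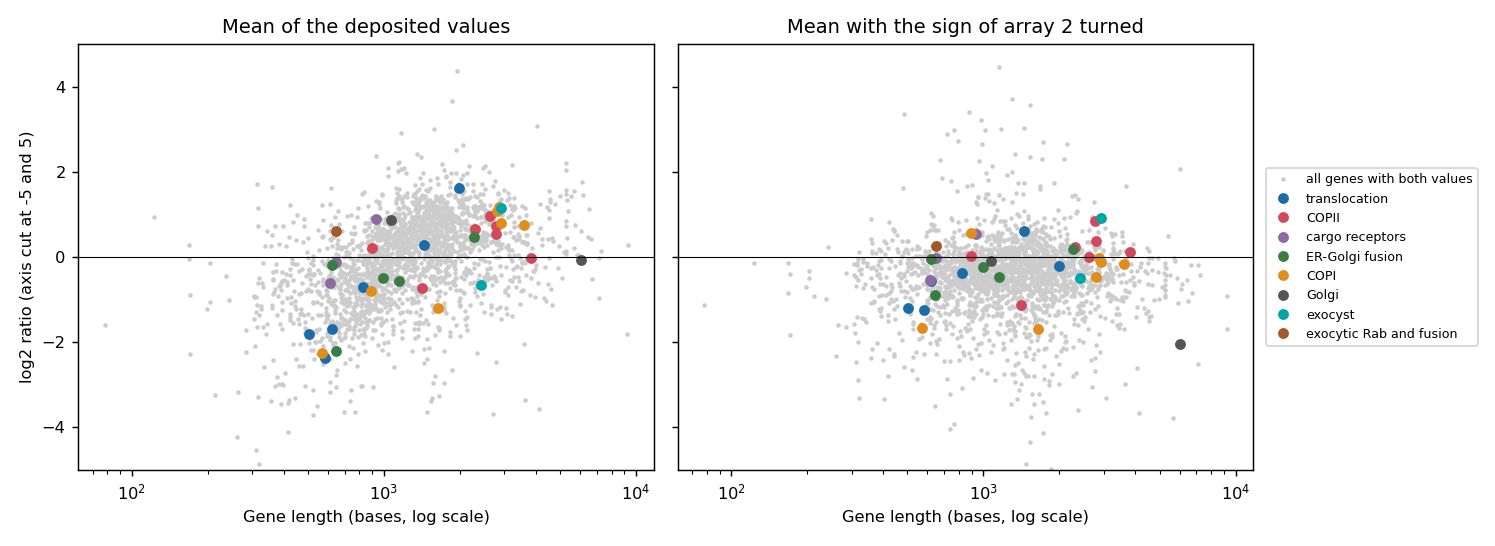
Gene length in bases (log scale) against the mean of the deposited values (left) and the mean with the sign of array 2 turned (right), for all genes with both values (grey) and the members (coloured by role). On the left the members' values are higher at greater length (rho = 0.66), whereas on the right they scatter about the all-gene median with SEC7, the longest, at -2.03.

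Whether a gene had a value at all differed by role. Members had both values in 68.8% of cases (33 of 48), against 36.3% of all genes. All 7 COPI genes, 6 of 7 translocation genes and 7 of 9 COPII genes were measured on both arrays, but only 2 of 6 exocyst genes and 1 of the 4 genes that act with it. Another 5 members had a value on array 2 only and 10 on neither array. The filter that left values out is not stated in the labels. How a missing value relates to the level of the transcript is therefore unknown.

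Genes of the same steps that are not members were listed for comparison. Of 79 such genes 77 had a row and 32 had both values, and 5 of the 32 were negative and none positive under the rule, beside 13.6% and 2.88% of all genes. The gene YDR292C, which encodes a receptor subunit for the signal recognition particle, had -5.39 on array 1 and -0.09 on array 2 (mean -2.74 ± 3.75). EXO70, an exocyst subunit, had -3.30 and -0.47 (mean -1.88 ± 2.01). USE1, an ER SNARE of retrograde traffic, had -1.87 and -1.24 (mean -1.56 ± 0.45). YKT6, a SNARE of several Golgi and vacuole steps, had -1.76 and -0.38 (mean -1.07 ± 0.97), and the remaining gene was SSO2, a plasma membrane SNARE. The median of the 32 was -0.32, against -0.12 for the 33 members and -0.37 for all genes. Of the 5, USE1 alone was at least 2-fold on each array. With array 2 as deposited USE1 averaged -0.32, and the median of the 32 was -0.08. The call of USE1 thus also rests on the turn.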

How the data were processed

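The authors deposited 1 log2 ratio per gene and array; scale, centring, direction, scanner, background correction, normalization and filter are not given in the sources used here. Base 2 was found from rounding: the 387 array 1 values below -2, and the 239 turned array 2 values below -2, were all log2 of whole multiples of 0.0001, where chance gives 8.52% and 10.8%; of 40 array 2 values below -2 as deposited, 3 were (chance 11.9%). The column medians were -0.38 and 0.40 as deposited. No spot intensities were used, so signal depth is unknown; the number of arrays limits precision. The 2 control rows were left out. RefSeq assembly R64 named 5654 of 6207 genes by locus tag and gave gene lengths, start to end; 1 comparison gene was matched by synonym. No coordinates are printed because the probes' build is not given. Members, roles and lists were chosen with earlier results of these data known. Every member could be named, and of the comparison list up to 4 called genes. Full values were planned for called members and the highest and lowest of each role; the rest are given too. Calculations used Python 3.11.15, pandas 2.3.3 and scipy 1.17.1. The code for the calls was run on a simulated dye swap whose dye effect was an exact function of gene length. That setting is simpler than these data, so it does not show how accurate the calls are here. Planned sequence and promoter comparisons were not run. Alternatives were array 2 as deposited, centring, rescaling, 1 array alone, other limits, discordant genes left out and, added later, centring by gene length, where the 80 genes without a RefSeq length were set at the median length.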

Additional observations from a re-analysis of the deposited data

How the results depend on the processing

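For positive and negative members (0 and 3 of 33), the counts were 4 and 5 with array 2 as deposited, 2 and 2 centred, 3 and 2 rescaled as well, 3 and 1 centred by gene length, 2 and 3 at 1.5-fold, 0 and 1 with 2-fold on each array, and 0 and 1 among the 7 members whose arrays differed by at most 1. From 1 array alone, positive counts were 4 and 6 and negative counts 4 and 12 (array 2 given before array 1). For comparison genes (0 and 5 of 32), they were 5 and 3 as deposited, 0 and 2 after centring, without and with rescaling, 0 and 1 by gene length, 0 and 1 with 2-fold on each array, 0 and 2 among 11 concordant genes, and 1 and 8 or 4 and 11 from array 2 or array 1 alone. At 1.5-fold the comparison genes gave 0 and 7. The share of all genes called was not computed with rescaling, at 1.5-fold, from 1 array alone or among concordant genes. Counts in those settings therefore have no background to be read against. The member median (-0.12) was 0.22 centred, 0.12 rescaled, 0.19 by gene length and -0.19 to 0.094 from 1 array. The cargo receptor median (-0.01) was 0.33, 0.38 and 0.44 under those 3 centrings. The all-gene median (-0.37) was 0.069 as deposited, -0.021 centred, -0.012 rescaled, -0.058 by gene length, -0.30 among concordant genes and -0.39 to -0.31 from 1 array. The medians of the other 4 roles moved by less than the spread between the arrays' medians, which is wide: translocation had -1.67 on array 1 and 0.46 on array 2. None of the 3 members called with the turn (SEC7, RET2 and SEC12) changed the sign of its mean under these settings. The rule fixed this for 1 array alone and for other limits, since it needs the same sign on both arrays. As deposited RET2 averaged -1.21 and SEC12 -0.72, because array 1 was the larger, while their array 2 values were positive. SEC66, SEC22, SEC72, SEC27 and SEC63 passed with 1 sign as deposited and on array 1 and with the other on the turned array 2. That change of sign was also fixed by the rule, because turning array 2 reverses its sign. SEC7 (-2.03) was -1.68 centred, -1.73 rescaled and -0.07 as deposited. The cause was not tested. Centring subtracts each array's median by construction.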
